A study of Mus musculus with 6 samples.

Results

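The prokineticin system consists here of 8 genes, which were taken from the arrays as every probe other than controls whose gene name in the scanner files equals Prok1, Prok2, Prokr1, Prokr2, Gnaq, Gna11, Gna12 or Gna13. These 8 of 27745 gene names had 14 of the 41174 different probes. The hearts were those of 3 wild type (WT) mice and of 3 TG-PKR1 mice that overexpress prokineticin receptor 1 (PKR1, the product of Prokr1), all male and 12 weeks old, with 1 array per heart and no treatment named in the labels. The transgene is under the control of the cardiomyocyte-specific alpha myosin heavy chain promoter, so that the overexpression is confined by design to 1 cell type, while the RNA came from the whole heart, and the methods give a C57BL6/J background. The titles call the transgenic samples TG1 without saying what the digit stands for, and no littermate relation between single mice is given. The question asked of these probes was which parts of the receptor pathway the arrays could measure in the heart, and whether the parts that could be measured differed between WT and TG-PKR1 hearts.

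Prokineticins are small secreted proteins that act on a pair of closely related G protein-coupled receptors, and they are known for their effects on blood vessel growth, feeding and the daily rhythm of the brain's clock. Prok1 and Prok2 encode the ligands, and Prokr1 and Prokr2 encode the receptors. A receptor of this kind hands its signal to heterotrimeric G proteins: the alpha subunits Gq and G11, encoded by Gnaq and Gna11, activate phospholipase C and thereby raise intracellular calcium and protein kinase C activity, and G12 and G13, encoded by Gna12 and Gna13, activate guanine nucleotide exchange factors for the small GTPase RhoA. In the heart, Gq signaling is a classic route to cardiomyocyte growth.

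The arrays differed in a way that bears on every dim probe. The gain ratio of the extended-range extraction recorded in the scanner files was 8.57 to 8.73 on the arrays of WT replicate 1 and TG replicates 2 and 3, and 1 on those of WT replicates 2 and 3 and TG replicate 1. The median local background was 64 or 65 intensity units on the former and 39 on the latter. The arrays lay on 5 slides, of which 1 held WT replicate 2 and TG replicate 1. The labelled tissue was checked with 8 cardiomyocyte markers, all of which were well above background in 6 of 6 hearts. In whole hearts, fewer cells of a type and less RNA per cell cannot be told apart.

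Detection was read first. By the scanner software's own mark for a signal well above background, 5 of the 8 genes had a probe detected in 6 of 6 hearts, namely Gnaq, Gna11, Gna12, Gna13 and Prok1. Prok2, Prokr1 and Prokr2 were not well above background in any heart, WT or TG-PKR1. Among all 41174 probes, 46.1% were well above background on 6 of 6 arrays and 35.3% on 0 of 6. Of the 14 probes of these genes, 8 were detected in 6 of 6 hearts, 1 in 5 and 5 in 0, and none was saturated or marked as an outlier. The arrays thus covered the G protein end of the pathway, with 4 of 4 alpha subunit genes detected, and 1 of the ligands, but neither receptor.

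**Figure D1:**
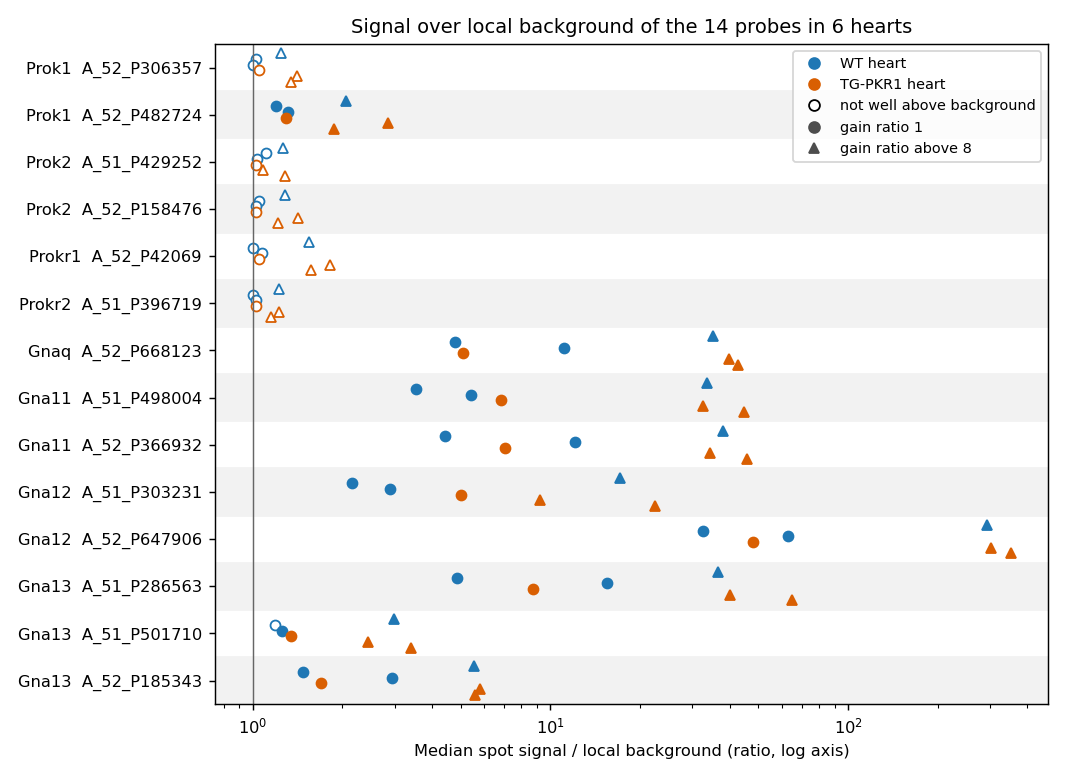
Median spot signal divided by the local background of the same spot (ratio, log axis) for the 14 probes, 6 hearts each; blue marks WT and orange TG-PKR1 hearts, open symbols a signal not well above background, triangles a gain ratio above 8 and circles a gain ratio of 1. The 5 probes of Prok1, Prok2, Prokr1 and Prokr2 with open symbols throughout stayed between 1.0 and 1.82, whereas all probes of Gnaq and Gna11 reached at least 3.54. Some detected spots of other probes fell into the lower range, such as A_52_P482724 of Prok1 (1.20) and A_52_P185343 of Gna13 (1.475) in WT replicate 2.

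Neither receptor was well above background on any array. The single probe of Prokr1 (A_52_P42069, chromosome 6 of mm8, 87544742 to 87544801, minus strand) gave raw median signals of 85, 41 and 43 intensity units in WT replicates 1, 2 and 3. In TG replicates 1, 2 and 3 the signals were 41, 111 and 96. The local background beside the same spots was 55, 41 and 40 in the WT and 39, 61 and 61 in the TG-PKR1 hearts. The 3 higher signals of Prokr1 were those of the 3 arrays with the higher gain ratio, and the groups overlapped. The 95th percentile of the negative control spots was 100.4, 42 and 41 in WT replicates 1, 2 and 3 and 42, 88.6 and 85.2 in TG replicates 1, 2 and 3. Prokr1 passed this limit on 3 of 6 arrays, those of WT replicate 3 and TG replicates 2 and 3, and the software's less strict mark for a signal positive and significant against background was set on the same 3 arrays. Since neither group was well above background, no fold is given. The sources used here do not say whether the sequence under this probe is part of the transgene, so the probe checks neither the genotype labels nor the transgene's expression. The probe of Prokr2 (A_51_P396719, chromosome 2, 132062775 to 132062834, minus strand) gave 78.5, 40 and 41 in the WT and 40, 76 and 78 in the TG-PKR1 hearts, and it passed neither of these marks on any array.

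The ligands were measured in part. Both probes of Prok2, the gene of the ligand prokineticin-2, were not well above background in 6 of 6 hearts. A_51_P429252 (chromosome 6, 99676868 to 99676927, minus strand) gave 77, 41 and 40.5 intensity units in WT replicates 1, 2 and 3 and 40, 76 and 82 in TG replicates 1, 2 and 3. A_52_P158476, which starts 96 bases away, gave 73, 41 and 41 and then 40, 84 and 81.5 in the same order. As with the receptors, these signals followed the gain of the array and no difference between groups is read from them. Prok1 had a pair of probes that disagreed. A_52_P306357 (chromosome 3, 107361091 to 107361150, minus strand) was detected in 0 of 6 hearts, with signals of 78.5, 40 and 40 in the WT and 39, 82 and 84 in the TG-PKR1 hearts. A_52_P482724 (chromosome 3, 107363533 to 107363592, minus strand), which lies 2442 bases farther from the 3′ end on the genome and is listed under the same transcript, was detected in 6 of 6. Its signals were 125, 48 and 50 in WT replicates 1, 2 and 3 and 50.5, 183 and 126 in TG replicates 1, 2 and 3, only 1.20 to 2.86 times the local background. The presence of Prok1 RNA in these hearts therefore rests on 1 of 2 probes, and the exon or UTR under each probe is not given in the sources used here.

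The promoters of these genes, from RefSeq on GRCm38.p6, are shown because detection parted the members and the windows around their start sites differ in make-up. Each runs from 250 bases before to 50 bases after the start of the gene, and 8 of 8 genes were matched, with 9 windows because Prok1 has more than 1 start. Capitals mark CpG, a C followed by a G. The receptor at the centre of the study, both ligands (for Prok1 the start with more CpG) and the G protein gene with the most CpG are printed.
Prokr1 promoter, chr6:87590694-87590993, minus strand, 13 CpG: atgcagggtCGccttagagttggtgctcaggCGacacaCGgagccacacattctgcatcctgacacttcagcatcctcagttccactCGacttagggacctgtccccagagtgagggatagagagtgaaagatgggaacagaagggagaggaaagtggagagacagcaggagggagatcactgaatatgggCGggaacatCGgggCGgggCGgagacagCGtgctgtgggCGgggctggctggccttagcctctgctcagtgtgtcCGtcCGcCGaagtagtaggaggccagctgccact
Prok2 promoter, chr6:99726343-99726642, minus strand, 42 CpG: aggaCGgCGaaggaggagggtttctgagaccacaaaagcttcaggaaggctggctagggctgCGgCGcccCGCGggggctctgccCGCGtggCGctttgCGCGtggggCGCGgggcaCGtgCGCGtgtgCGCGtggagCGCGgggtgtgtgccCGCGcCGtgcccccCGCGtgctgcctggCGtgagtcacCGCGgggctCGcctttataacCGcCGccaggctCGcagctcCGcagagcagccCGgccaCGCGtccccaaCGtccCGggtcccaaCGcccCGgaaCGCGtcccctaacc
Prok1 promoter, chr3:107239658-107239957, minus strand, 8 CpG: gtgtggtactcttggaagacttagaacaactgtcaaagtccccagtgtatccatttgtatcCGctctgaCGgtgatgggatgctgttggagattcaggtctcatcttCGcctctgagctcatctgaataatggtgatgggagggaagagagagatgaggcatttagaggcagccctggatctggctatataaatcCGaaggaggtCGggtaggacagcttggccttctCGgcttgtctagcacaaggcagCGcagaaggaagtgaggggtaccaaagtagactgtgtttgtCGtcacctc
Gna11 promoter, chr10:81545113-81545412, minus strand, 48 CpG: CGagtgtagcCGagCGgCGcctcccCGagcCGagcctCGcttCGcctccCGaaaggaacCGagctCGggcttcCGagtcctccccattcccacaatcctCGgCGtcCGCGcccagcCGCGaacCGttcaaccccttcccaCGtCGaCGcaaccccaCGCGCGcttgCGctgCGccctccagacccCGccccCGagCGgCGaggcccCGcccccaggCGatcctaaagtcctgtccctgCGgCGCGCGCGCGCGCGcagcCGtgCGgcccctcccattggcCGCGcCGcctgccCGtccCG
The windows of the 4 G protein genes, all detected, held 30 to 48 CpG, with 30 in Gna12, 39 in Gnaq, 40 in Gna13 and 48 in Gna11, against a median of 7 over 32851 promoters. Prokr1 and Prokr2 held 13 and 12, and the Prok1 windows 8 and 4. Prok2 stood with the G proteins by this count, with 42 CpG, more than 97.0% of all promoters hold, although neither of its probes was detected. Prok1 held the fewest, although 1 of its 2 probes was detected. Whether the CpG count goes with detection was not tested. The E-box CACGTG, which reads the same on both strands and overlaps a CpG, was found in the windows of Prok2 and Gna13 and in 7.15% of all promoters. These matches describe the letters in the windows and no binding.

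TG-PKR1 hearts were then compared with WT hearts in normalized log2 signal, which is the log2 median signal after loess normalization against the median profile of the 6 arrays. The 8 probes of the G protein genes were among the 20000 probes of highest median, and 0 of 8 were called by limma at an adjusted p under 0.05, in a comparison where 0.095% of the probes were called (19 of 20000, all lower in TG-PKR1 hearts). At an unadjusted p under 0.05, 0 of these 8 and 2.38% of the 20000 passed. In 0 of the 8 did the hearts of one group lie wholly above those of the other, against 5.41% of the probes. The 6 probes of the ligands and receptors were tested only among all 41174 probes, where 0% were called 2.56% passed at an unadjusted p under 0.05 and 7.08% had no overlap of the hearts, and 0 of 6 met any of these marks. A permutation of 3 hearts against 3 cannot give a p below 0.1, and the exact two-sided p of the 9 probes described next was 0.4 or higher.

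**Figure D2:**
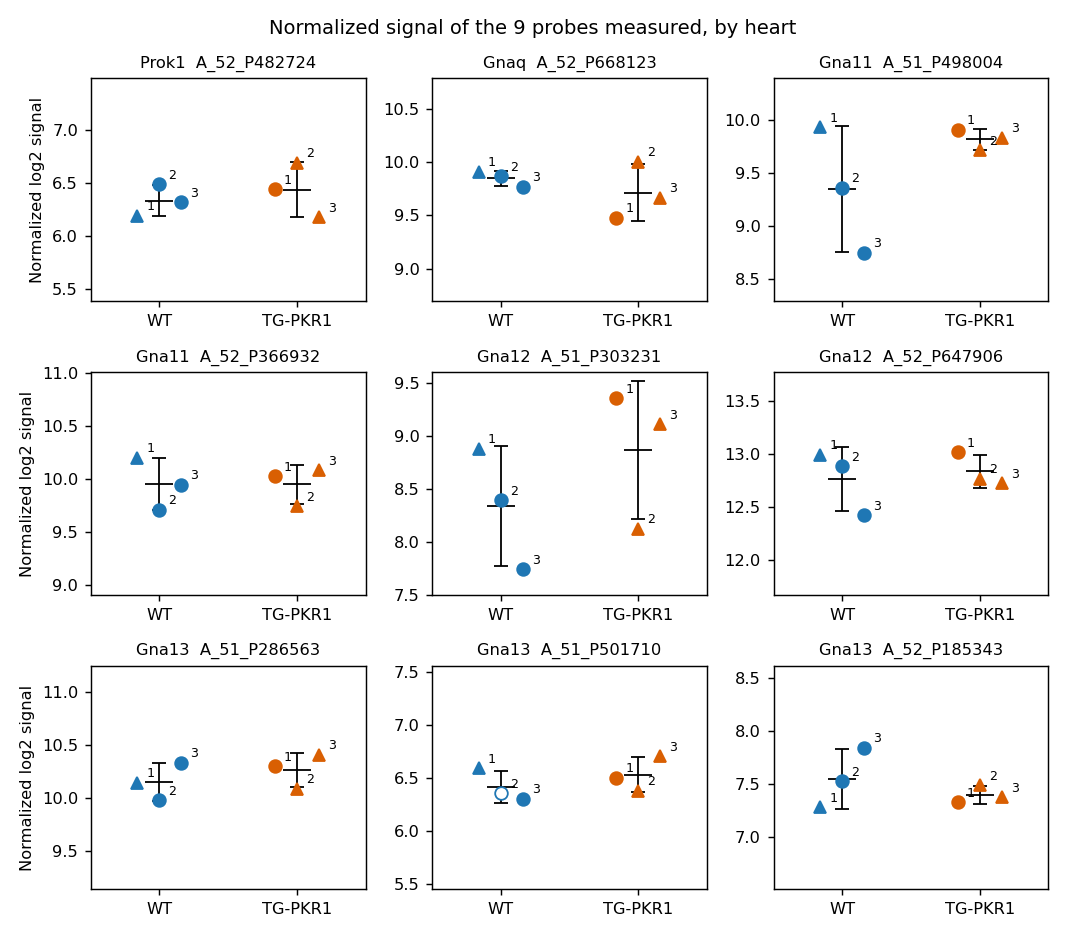
Normalized log2 signal of the 9 probes well above background in 5 or 6 hearts, by group; points are hearts numbered by replicate, the bar and whiskers are mean and SD (n = 3), triangles mark a gain ratio above 8 and the open circle a spot not well above background. All panels span the same log2 range, and the 2 probes with the widest spread, A_51_P498004 of Gna11 and A_51_P303231 of Gna12, have overlapping groups like the other 7.

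The Gq/11 subunits came first by role. Gnaq, encoding the alpha subunit of Gq, was measured by A_52_P668123 (chromosome 19, 16452369 to 16452428, plus strand) with log2 signals of 9.91, 9.87 and 9.77 in WT replicates 1, 2 and 3 and 9.48, 10.01 and 9.67 in TG replicates 1, 2 and 3. The TG-PKR1 hearts spread on both sides of the WT hearts. Subtracting the WT mean from the TG-PKR1 mean gave -0.13 on the log2 scale (SE 0.17, 95% interval -0.53 to 0.26, limma adjusted p = 1.0), which leaves room for folds between 0.693 and 1.20. Single hearts moved this value, to -0.015 without TG replicate 1 and to -0.28 without TG replicate 2.

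Gna11, encoding the alpha subunit of G11, had 2 probes that gave unlike differences. A_51_P498004 (chromosome 10, 80934479 to 80934538, minus strand) gave 9.94, 9.37 and 8.75 in WT replicates 1, 2 and 3 and 9.91, 9.72 and 9.84 in TG replicates 1, 2 and 3. The TG-PKR1 hearts lay close together, at an SD of 0.10 against 0.59 in the WT, where replicate 3 was low and replicate 1 above all 3 TG-PKR1 hearts. The means were 0.47 log2 units apart, higher in TG-PKR1 (SE 0.27, 95% interval -0.15 to 1.09, limma adjusted p = 1.0). This difference was 0.17 without WT replicate 3 and 0.76 without WT replicate 1. A_52_P366932, 2424 bases nearer the 3′ end at 80932055 to 80932114, gave 10.21, 9.71 and 9.95 in the WT and 10.03, 9.75 and 10.09 in the TG-PKR1 hearts, a log2 difference of -0.0029 (SE 0.18, 95% interval -0.41 to 0.41). The difference between groups was 0.47 log2 units larger at the first probe than at the second, with an exact two-sided permutation p of 0.1, the smallest 3 against 3 can give, and 0.5 after Benjamini-Hochberg adjustment over the 5 probe pairs of the G protein genes. The interval of the second probe was the narrower one and held folds between 0.75 and 1.33.

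The G12/13 subunits were next. Gna12 had the most variable probe of the system. A_51_P303231 (chromosome 5, 141012697 to 141012756, minus strand) gave 8.88, 8.39 and 7.74 in WT replicates 1, 2 and 3 and 9.35, 8.12 and 9.11 in TG replicates 1, 2 and 3. The highest and the lowest heart were 1.61 log2 units apart, and TG replicate 2 lay below both WT replicates 1 and 2. The SD over all 6 hearts was 0.62, larger than that of 97.9% of the 20000 probes, and that of A_51_P498004 of Gna11 was 0.46, larger than that of 92.9%. For the other 6 probes of the G protein genes this rank ran from 24.8% to 50.3%. The log2 difference of Gna12 at A_51_P303231 was 0.52 (SE 0.37, 95% interval -0.32 to 1.36, limma adjusted p = 1.0), the largest of the 8 and also the least certain, with folds from 0.803 to 2.57 inside the interval. With 1 heart left out this difference ran from 0.23 to 0.89. The other Gna12 probe, A_52_P647906, 1650 bases nearer the 3′ end at 141011047 to 141011106, gave 12.997, 12.89 and 12.43 in the WT and 13.02, 12.77 and 12.73 in the TG-PKR1 hearts, a log2 difference of 0.07 (SE 0.19, 95% interval -0.36 to 0.50). Its difference ran from -0.10 to 0.18 with 1 heart left out. The probes of Gna12 differed by 0.45 log2 units in the size of the group difference (exact permutation p = 0.3, adjusted p = 0.5).

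Gna13 had 3 probes on the plus strand of chromosome 11. A_51_P286563 (109217062 to 109217121) gave 10.15, 9.98 and 10.34 in WT replicates 1, 2 and 3 and 10.30, 10.09 and 10.41 in TG replicates 1, 2 and 3, a log2 difference of 0.11 (SE 0.16, 95% interval -0.26 to 0.49). A_51_P501710 (109212884 to 109212943) had signals of 1.19 to 3.41 times its local background and was not well above it in WT replicate 2. Its values of 6.59, 6.36 and 6.31 in the WT and 6.50, 6.38 and 6.71 in the TG-PKR1 hearts differed by 0.11 (SE 0.16), and the processed signal with 75th percentile scaling, which changes signal, background and scaling together, gave 0.53 (SE 0.29) for this probe and 0.016 (SE 0.21) for A_51_P286563. A_52_P185343, designed on another transcript 20699 bases farther from the 3′ end (109196363 to 109196422), differed in the opposite direction, by -0.15 (SE 0.18, 95% interval -0.56 to 0.25), with 7.28, 7.53 and 7.84 in the WT and 7.33, 7.49 and 7.37 in the TG-PKR1 hearts. The adjusted p was 1.0 for all 3. The difference at A_52_P185343 went to -0.0065 without WT replicate 3 and to -0.29 without WT replicate 1. For the pairs of probes with opposite directions the exact permutation p was 0.2 and 0.4 (adjusted p = 0.5 for both). As this p cannot fall below 0.1, the test could not part any pair at 0.05.

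Prok1, the ligand also known as EG-VEGF for its action on the endothelium of endocrine glands, could be compared at A_52_P482724 alone. The log2 signals were 6.19, 6.49 and 6.32 in WT replicates 1, 2 and 3 and 6.44, 6.69 and 6.18 in TG replicates 1, 2 and 3. The highest and the lowest heart were both transgenic. The log2 difference was 0.10 (SE 0.15, 95% interval -0.27 to 0.48, limma p adjusted over 41174 probes = 1.0). It became -0.32 when the 75th percentile scaled the arrays in place of loess, so its direction is not settled. Background was not subtracted here. Alternatives that changed background correction and scaling together gave 0.072 (SE 0.51) for the processed signal with 75th percentile scaling and 0.054 (SE 0.13) for normexp with quantile normalization. Leaving out TG replicate 2 gave -0.023.

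**Figure D3:**
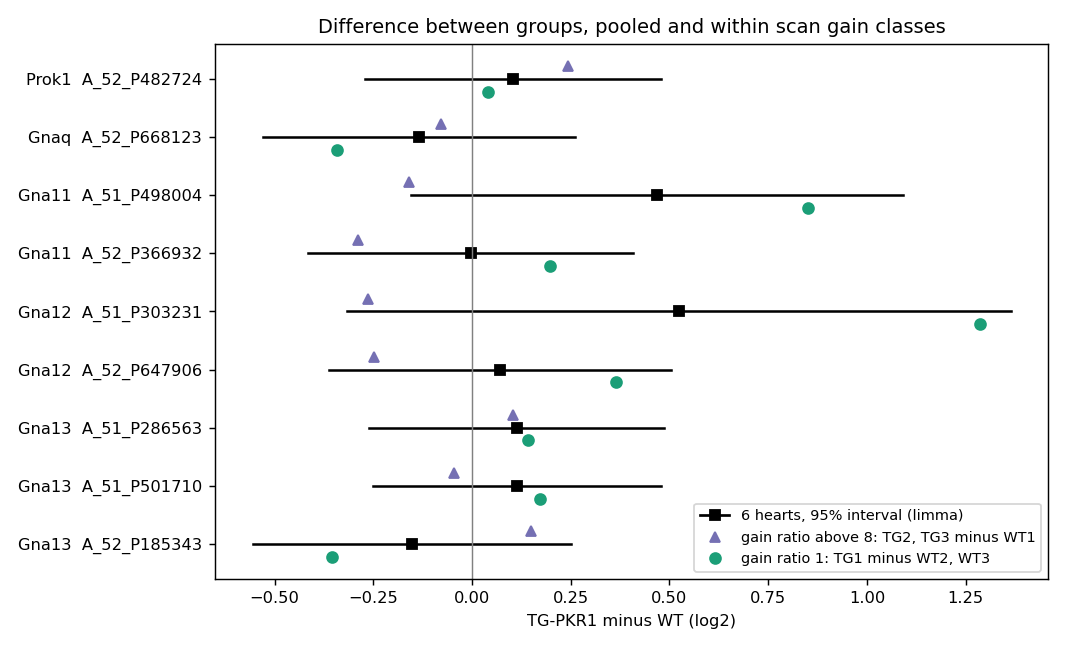
TG-PKR1 mean minus WT mean (log2) for the 9 measured probes: squares with lines are the values over 6 hearts with their 95% interval from limma, triangles the values among the arrays of gain ratio above 8 (TG replicates 2 and 3 minus WT replicate 1) and circles those among the arrays of gain ratio 1 (TG replicate 1 minus WT replicates 2 and 3). All 9 intervals include 0, and for A_51_P303231 of Gna12 the triangle stands at -0.26 and the circle at 1.29.

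The 2 probes with the largest differences did not keep their direction within the gain classes. Among the 3 arrays with the higher gain ratio, the log2 difference was -0.16 at A_51_P498004 of Gna11 and -0.26 at A_51_P303231 of Gna12. Among the 3 arrays with a gain ratio of 1, the values were 0.85 and 1.29. The same split of sign was found at A_52_P366932 of Gna11 (-0.29 and 0.20), A_52_P647906 of Gna12 (-0.25 and 0.36), and A_51_P501710 and A_52_P185343 of Gna13 (-0.05 and 0.17, 0.15 and -0.35). Gnaq kept its direction, with -0.08 and -0.34, as did A_51_P286563 of Gna13, with 0.10 and 0.14, and Prok1, with 0.24 and 0.04. Within the slide that held WT replicate 2 and TG replicate 1, the difference was 0.54 for A_51_P498004, 0.96 for A_51_P303231, 0.32 for A_51_P286563 and -0.39 for Gnaq. It was 0.13 for A_52_P647906, 0.15 for A_51_P501710 and -0.20 for A_52_P185343. Against the value over 6 hearts, the sign was turned for A_52_P366932 of Gna11 (0.32) and for Prok1 (-0.045). Each class compares 1 heart with 2. The part of the gain in these values was not tested beyond a fit with the gain as a block. In that fit A_51_P498004 and A_51_P303231 stood at 0.35 (SE 0.28) and 0.51 (SE 0.42). It called 0 of the 9 probes but also 0 of the 20000 brightest probes, so the count is not particular to the 9.

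The genes whose signal followed that of each G protein gene most closely over the 6 hearts were looked up by the Pearson correlation with the member's brightest probe, over 14000 genes, as a description. Gnaq went with 2010004M13Rik, 2410022M11Rik and Phf3 (r from 0.98 to 0.99). Gna11 went with Btbd9, Kidins220 and Nfya, with r of 0.997, 0.996 and 0.995, and 263 genes had an r above 0.95 with it. Gna12 went with Samd4b, Olfr1339 and Galnt10 (r from 0.98 to 0.99), and Gna13 with Higd2a, Adk and TC1617856 (r from 0.986 to 0.997). With 6 hearts such values arise for many genes, as 35 for Gna12, 37 for Gnaq and 58 for Gna13 above 0.95 show. All genes of a heart were read on the same array, with its slide and gain, and nothing is read from these names.

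The rest of the pathway was covered better than its receptors. Of 101 genes in 7 lists written from general knowledge, 87 were represented among the 20000 brightest probes, and 0 of 87 were called at an adjusted p under 0.05, beside the 0.095% of probes called in all. At an unadjusted p under 0.05, 3 of 87 genes passed (3.45%), against 2.56% of 14036 genes. The TG-PKR1 mean lay above the WT mean for 48 and below it for 39, with a median log2 difference of 0.02 against 0.01 over all genes. The hearts did not overlap for 8 of 87 genes (9.20%), of which 6 were higher and 2 lower, against 750 of 14036 genes (5.34%). Counted over probes, the share in all was 5.41%, with 2.68% higher and 2.73% lower. No test of these lists as such was made.

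**Figure D4:**
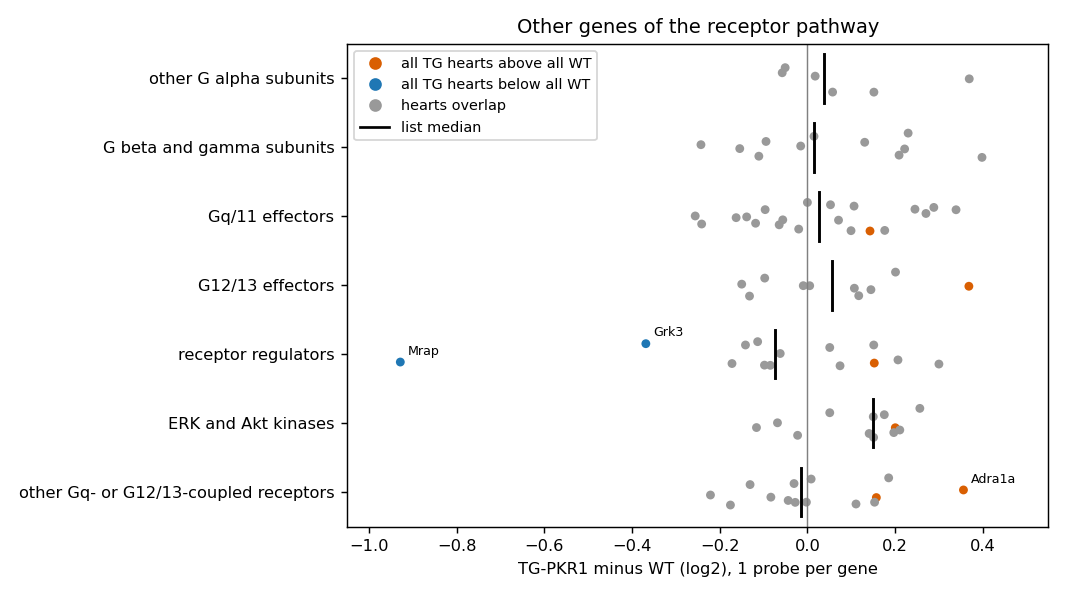
TG-PKR1 mean minus WT mean (log2) for the 87 genes of 7 pathway lists, 1 point per gene (its brightest probe), scattered vertically at random within a list; black lines are list medians, orange and blue points are genes whose TG-PKR1 hearts all lay above or below all WT hearts. The list medians lie between -0.07 and 0.15, and Mrap stands apart at -0.93.

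Among the other subunits of G proteins, no gene tested passed the threshold. Of 6 other alpha subunit genes tested, 4 had a higher and 2 a lower mean, and those with the smallest p were Gnas, encoding the stimulatory subunit that drives adenylyl cyclase (0.37, SE 0.30), and Gnao1 (0.15, SE 0.19). At the higher gain ratio and at a gain ratio of 1, Gnas stood at -0.41 and 0.98, and Gnao1 at -0.16 and 0.43. Gnal was detected in 0 of 6 hearts. Of 11 beta and gamma subunit genes, which form the partner dimer of every alpha subunit, 6 had a higher and 5 a lower mean, with Gnb2 at 0.40 (SE 0.26) and Gng2 at -0.24 (SE 0.20) in front. Within the gain classes, in the same order, Gnb2 turned its sign (-0.18 and 0.75) and Gng2 kept it (-0.14 and -0.11). Gng3 and Gng4 were detected in 0 of 6 hearts.

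Downstream of Gq/11, all 20 effector genes listed (phospholipase C beta, inositol trisphosphate receptors, protein kinase C, calcineurin and NFAT) were tested, with 11 higher and 9 lower means and a median log2 difference of 0.03. Plcb4, a phospholipase C, differed by 0.27 (SE 0.18) and Prkch, a protein kinase C, by 0.29 (SE 0.21). At the higher gain ratio and at a gain ratio of 1, Plcb4 stood at 0.58 and -0.09, and Prkch at -0.13 and 0.61. Downstream of G12/13, 10 of 10 genes were tested, with 6 higher and 4 lower means and a median of 0.06. This median was -0.041 without WT replicate 2 and 0.18 without WT replicate 1. Rock2 differed by 0.37 without overlap of the hearts (SE 0.17, limma unadjusted p = 0.0645), and Rhoc by -0.15 (SE 0.15). Both kept their sign within the gain classes. Of 12 kinases of the ERK and Akt routes, 9 had a higher and 3 a lower mean, at a median of 0.15 that was 0.018 without WT replicate 2 and 0.28 without WT replicate 1, and Map2k2 differed by 0.26 (SE 0.16). Map2k2 kept its sign within the gain classes, at 0.045 and 0.38.

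The regulators of receptors held the gene nearest to the threshold. Mrap, which encodes an accessory protein of melanocortin receptors known from the adrenal cortex and adipose tissue, had log2 signals of 9.84, 9.82 and 10.02 in WT replicates 1, 2 and 3 and 9.15, 9.09 and 8.66 in TG replicates 1, 2 and 3. The groups did not overlap, and the difference was -0.93 (SE 0.18, limma adjusted p = 0.227, lower in 3 of 3 TG-PKR1 hearts than in any WT heart). The sign was the same within the gain classes, at -0.97 and -0.77. Adipocyte markers moved with the groups: 7 of 7 tested were lower in TG-PKR1 hearts, 4 of them past the threshold, and their summed level was 16.09 to 16.38 log2 units in TG-PKR1 against 17.10 to 17.56 in WT hearts. Their calls, like all 19, were lost with the gain as a block (smallest adjusted p = 0.0885), over all probes (0.198) and without WT replicate 1 or 3 or TG replicate 1 or 3 (0.0694 to 0.172). The differences of these 7 markers were negative within both gain classes, from -3.86 to -0.71 log2 units at the higher gain ratio and from -2.63 to -0.77 at a gain ratio of 1. None of the 8 adipocyte markers was undetected in all hearts, and their part in the value of Mrap was not tested. Grk3, a kinase that desensitizes G protein-coupled receptors, gave 8.83, 8.71 and 8.79 in the WT and 8.59, 8.39 and 8.25 in the TG-PKR1 hearts, a difference of -0.37 (SE 0.15, unadjusted p = 0.0390, limma adjusted p = 1.0). Of the 14 regulators tested, 6 had a higher and 8 a lower mean.

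Other receptors that couple to Gq or G12/13 were measured where the prokineticin receptors were not. Of 19 such genes, 13 were detected in 6 of 6 hearts, 14 were tested, and Agtr1b, Chrm3 and Oxtr were, like Prokr1 and Prokr2, detected in 0 of 6. Adra1a, the alpha-1A adrenergic receptor of the cardiomyocyte, gave 6.46, 6.65 and 6.50 in the WT and 6.83, 6.83 and 7.01 in the TG-PKR1 hearts, a difference of 0.36 without overlap (SE 0.14, unadjusted p = 0.0377, limma adjusted p = 1.0). F2r, a thrombin receptor, differed by -0.22 (SE 0.19). The summed levels of markers of the other cell types overlapped between the groups. Called were 0 of 8 cardiomyocyte, 0 of 6 endothelial, 0 of 8 fibroblast and epicardial and 0 of 6 macrophage and neutrophil markers tested. Of the 20000 probes, 0.095% were called. The TG-PKR1 mean was higher for 7 and lower for 1 of the cardiomyocyte markers, and for 3 and 3 of the endothelial ones. It was higher for 1 and lower for 7 of the fibroblast and epicardial markers (median log2 difference -0.13). For the macrophage and neutrophil markers it was higher for 1 and lower for 5 (median -0.30).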

How the data were processed

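RNA of 3 WT and 3 TG-PKR1 mouse hearts was hybridized to 1-colour Agilent arrays. The deposited scanner files of the authors hold the fluorescence intensity of each spot, extracted with Agilent Feature Extraction and not normalized between arrays. Their normalized log2 values, also deposited, had been smoothed by LOWESS against a median profile, averaged over replicate probes and restricted to bright probes, and served as an alternative.

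Columns read were the spot's median, mean and processed signal, its local background and the software's marks. The main analysis took the log2 median signal, with no background subtracted and control and outlier spots left out, normalized by loess (span 0.3, 4 iterations) of each array's difference from the median profile against their mean. This axis was chosen after a first one had been run, which is given as an alternative. Replicate spots were averaged, and the 20000 probes of highest median made up the main table of values. TG-PKR1 and WT hearts were compared with limma 3.58.1 in R 4.3.3 (data.table version 1.17.8), with Benjamini-Hochberg adjustment at 0.05, and single values by exact permutation. The test between probes of a gene was added after seeing the data. Alternatives changed the signal column, background correction (normexp, offset 50), normalization, filter, eBayes setting, gain block, detection rule and hearts. The procedure was tested on simulated data, and no result of that test is given here.

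All probes of the 8 genes were named. From each pathway list the genes past the threshold, or otherwise the 2 with the smallest p, were named, and for each G protein gene the 3 genes most alike. Some of these genes are not reported here. Prok1, though detected, was below the 20000 and got none. Members and lists were chosen with earlier results of these data known. Probes were renamed through RefSeq names of GRCm38.p6 by accession (24496 of 41174) or name (8620), and 8058 were not renamed. Positions of probes refer to mm8, the build in the files. Separate hearts are separate mice. The number of arrays and the signal over background limit the precision.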

Additional observations from a re-analysis of the deposited data

How the results depend on the processing

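No alternative changed a call of the 8 genes or of the pathway lists: the number of genes detected stayed at 5 under each detection rule and in the 5 hearts left when 1 was dropped, and 0 probes of the 8 genes and 0 genes of the pathway lists were called under every alternative that was run. The smallest adjusted p of a measured probe was 0.799, for A_51_P303231 of Gna12 without TG replicate 2. Over all settings its log2 difference ran from 0.23 to 0.89 and that of A_51_P498004 of Gna11 from 0.17 to 0.76, in both cases the range from leaving out 1 heart. A_51_P501710 of Gna13 ran from 0.026 to 0.53, A_51_P286563 from 0.016 to 0.21, A_52_P185343 from -0.29 to -0.0065 and Gnaq from -0.28 to -0.015. Small differences turned. When the 75th percentile replaced loess, A_52_P366932 of Gna11 went to 0.078 and A_52_P482724 of Prok1 to -0.32. With 1 heart left out, A_52_P366932 ran from -0.12 to 0.12, A_52_P647906 of Gna12 from -0.10 to 0.18 and A_52_P482724 from -0.023 to 0.23. The cause was not tested. The medians of the 7 pathway lists lay between -0.092 and 0.28 over all settings. The number of probes called in all, 19, ran from 0 to 37 over the alternatives, and was 2 with loess on the median profile itself. That axis had been run first and was kept as an alternative that was not planned. The main axis was chosen after its result had been seen. The slide as a random block could not be fitted, since 1 slide alone holds 2 arrays. No paired analysis was possible because replicate numbers were given here in accession order and pair no mice. Signal over background limits Prok1, and for Prok2, Prokr1 and Prokr2 no difference could be read.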
